A study of Homo sapiens with 21 samples.

Results

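Genes of endoplasmic reticulum (ER)-associated degradation (ERAD) were followed in human cells treated with tunicamycin, which blocks N-linked glycosylation in the ER. The 10 genes are HERPUD1, SEL1L, SYVN1, EDEM1, EDEM2, EDEM3, DERL1, DERL2, OS9 and SELENOS. They were chosen by name, as the rows of the count table whose Ensembl identifier maps to these symbols, and are 10 of 60671 genes in the table. All 10 passed the filter on low counts and are among the 14012 genes tested. The table holds 21 RNA-sequencing libraries in 7 groups of 3. OCI-AML3 cells, a line established from an acute myeloid leukaemia, were untreated at 0 h, or were given the solvent DMSO or tunicamycin at 1 μg/mL for 4 h or for 24 h. HEK293T cells, a line of human embryonic kidney origin, were given DMSO or tunicamycin at 1 μg/mL for 24 h. Each group is 1 established line grown in culture, with 1 dose of 1 inducer. The labels number the replicates 1 to 3 without saying whether they were separate cultures, so p-values measure only the spread between these libraries, which may be technical.

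In ERAD, misfolded glycoproteins are recognised in the ER lumen, passed through the membrane to the cytosol and degraded by the proteasome. EDEM proteins trim or bind the mannoses of the glycan and lectins such as OS9 read the trimmed glycan. SEL1L hands the substrate to the ubiquitin ligase SYVN1 (HRD1), around which HERPUD1 and the derlins assemble, and SELENOS helps to recruit the ATPase VCP, which extracts the protein. Several of these genes are known targets of the unfolded protein response, through the transcription factors XBP1, ATF6 and ATF4.

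Levels are given as CPM, counts scaled to a common library size with TMM factors. CPM are shares of a library, so a change in the RNA of a gene and a change in the total RNA of a cell, or in the number of cells, cannot be told apart. Libraries held 13838480 to 19961819 counts, and the 10 genes had 283 to 22194 counts in each library. In this text a gene rose or fell where edgeR's quasi-likelihood test gave an adjusted p of at most 0.05 over all genes tested, and was called where its log2 fold change was also above 1 or below -1. HSPA5, the ER chaperone BiP and a check of the treatment, rose with log2 fold changes of 3.29 (OCI-AML3, 4 h), 3.52 (OCI-AML3, 24 h) and 2.701 (HEK293T). All 8 haematopoietic markers had counts in OCI-AML3 libraries, summing to 849 to 1092 CPM, although MPO reached only 1.66 CPM. The same list summed to 3.54 to 4.95 CPM in HEK293T libraries, with PTPRC, MPO, TYROBP and CSF3R at 0. The 7 markers of HEK293T cells summed to 162 to 176 CPM there and to 5.31 to 7.94 CPM in OCI-AML3 libraries, with PAX2 and EPCAM among those at 0 in the latter and LHX1 low in both lines.

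Promoters are shown for HERPUD1 and SYVN1 because these were the members with the largest fold changes in OCI-AML3 cells at 4 h. Promoter windows of RefSeq (GRCh38.p14), from 250 bases before to 50 bases after the start of a gene, were matched for 9 of the 10 genes, all but DERL1. They were searched on both strands for motifs known from ER stress: the ERSE (CCAAT and CCACG with 9 unspecified bases between them), the ERSE-II (ATTGG and CCACG with 1 unspecified base between them), the UPRE (TGACGTGG), the CARE bound by ATF4 (TGATGNAA), and CCACG, which is part of both ERSE motifs and, as its reverse complement, of the UPRE. In the HERPUD1 window (chr16:56931892-56932141, plus strand, 250 bases before the start), the capitals mark first a CARE on the other strand, 176 to 169 bases before the start, and then the ERSE-II, 117 to 107 bases before it.
HERPUD1: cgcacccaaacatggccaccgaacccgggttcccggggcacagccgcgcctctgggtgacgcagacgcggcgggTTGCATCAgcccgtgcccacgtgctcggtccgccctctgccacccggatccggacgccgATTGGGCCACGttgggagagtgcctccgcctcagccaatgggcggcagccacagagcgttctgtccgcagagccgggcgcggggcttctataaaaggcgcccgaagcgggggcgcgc
In the SYVN1 window (chr11:65134581-65134650, minus strand, 131 to 62 bases before the start), the capitals mark the 2 CCACG matches.
SYVN1: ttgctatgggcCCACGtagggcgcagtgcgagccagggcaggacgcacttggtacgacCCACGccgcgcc

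HERPUD1 was the 1 member of 9 with an ERSE-II, held by 0.0549% of 27305 promoters, and the 1 member with a CARE, held by 3.67%. CCACG was found in 7 of 9 windows, all but EDEM2 and DERL2, against 37.9% of all promoters and 30 of 41 promoters of other ERAD genes. The ERSE and the UPRE were found in 0 of the 9 windows, against 0.0806% and 0.795% of all promoters. A match describes the letters of a window and is not a binding site, and the absence of one speaks only of these letters in this window.

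Tunicamycin raised most of the genes in all 3 comparisons with DMSO. Of the 10, 6 were called higher at 4 h in OCI-AML3 cells (HERPUD1, SYVN1, SEL1L, DERL2, SELENOS and EDEM1), against 3.45% of all genes tested, and the median log2 fold change of the 10 was 1.14. At 24 h, 4 of 10 were called higher (SYVN1, HERPUD1, SEL1L and DERL2), against 4.05% of all genes, with a median of 0.91. HEK293T cells had 5 of 10 called higher (HERPUD1, SEL1L, SYVN1, EDEM1 and SELENOS), against 1.58%, with a median of 1.00. The median over all 14012 genes was -0.02, -0.01 and -0.01. At an adjusted p of at most 0.05 alone, 7, 9 and 10 of the 10 genes rose, against 18.5%, 23.5% and 12.6% of all genes, and 0 fell, against 18.9%, 27.7% and 13.1%. The libraries of the 2 groups did not overlap, with tunicamycin higher, for the same numbers of members (7, 9 and 10), against 22.9%, 25.0% and 23.4% of all genes.

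**Figure D1:**
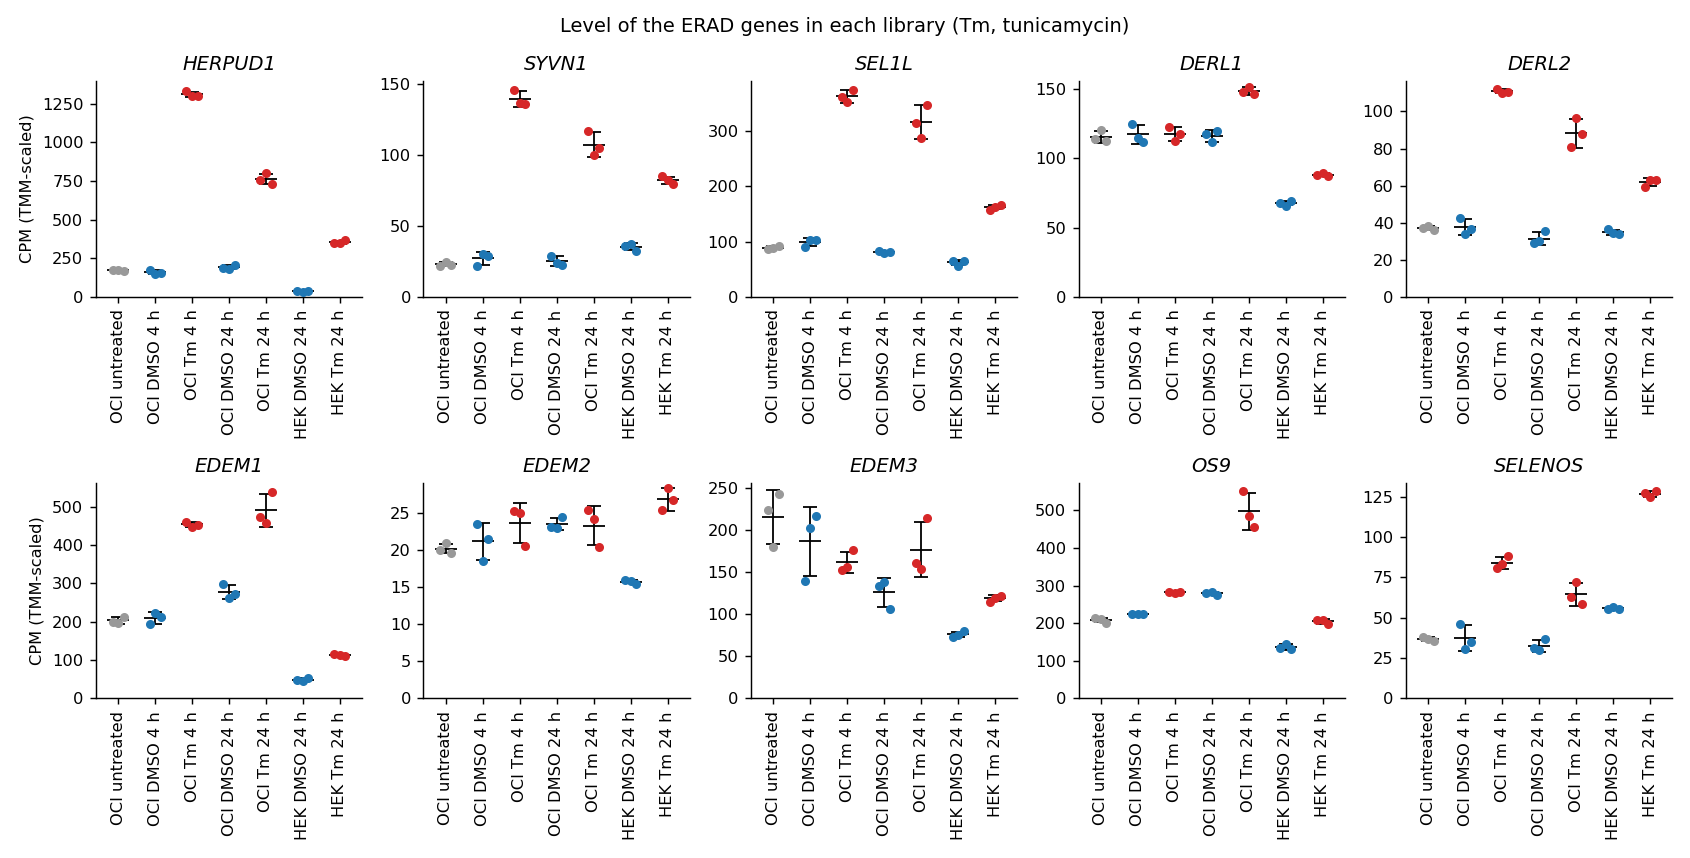
Level of each gene in CPM (vertical axis, from 0, with its own scale in each panel) in the 7 groups. Points are libraries (grey, untreated; blue, DMSO; red, tunicamycin, Tm), and lines with bars are the mean and SD of 3 replicates. HERPUD1 stands at 1298 to 1333 CPM after tunicamycin for 4 h and at 150.02 to 176 CPM with DMSO, while EDEM2, EDEM3 and DERL1 overlap between these groups.

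HERPUD1 (ENSG00000051108, chr16:56932142-56944864, plus strand), whose protein sits in the ER membrane and binds the SYVN1 ligase, had the largest change of the members in OCI-AML3 cells at 4 h and in HEK293T cells. With DMSO for 4 h its level was 176, 150.02 and 152 CPM, and with tunicamycin it was 1333, 1302 and 1298 CPM. These are 8.24 times the DMSO level, with a log2 fold change of 3.04 ± 0.07 (SE, n = 3 against 3, edgeR adjusted p = 4e-19). At 24 h the libraries had 186, 182 and 208 CPM with DMSO and 758, 799 and 733 CPM with tunicamycin. The rise was smaller than at 4 h, with a log2 fold change of 1.99 ± 0.07 (adjusted p = 4e-16). HEK293T cells held much less of this RNA with DMSO, at 35.4, 32.8 and 36.8 CPM, and reached 347, 348 and 365 CPM. That was the largest fold of the members in any comparison, 10.1 times, with a log2 fold change of 3.33 ± 0.07 (adjusted p = 2.9e-19). Even so, HEK293T cells with tunicamycin stayed below both OCI-AML3 groups with tunicamycin in every library. Among all genes tested, the rise of HERPUD1 ranked 40, 90 and 20 in the 3 comparisons. Untreated OCI-AML3 cells (171, 173 and 168 CPM) overlapped with DMSO at 4 h, and all other neighbours in the order of the 7 groups were apart.

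SYVN1 (ENSG00000162298, chr11:65121780-65134532, minus strand) encodes the ubiquitin ligase of the complex. It stood at 21.99, 30.02 and 29.0 CPM with DMSO for 4 h, and at 146, 136 and 136 CPM with tunicamycin. The log2 fold change was 2.37 ± 0.10 (adjusted p = 1.8e-14), 5.16 times the DMSO level. After 24 h SYVN1 went from 29.0, 24.0 and 22.3 CPM to 117, 99.9 and 105 CPM, a log2 fold change of 2.09 ± 0.10 (adjusted p = 2.8e-13). SYVN1 had the largest rise of the members in this comparison, close to that of HERPUD1 (1.99 ± 0.07). With a library left out, SYVN1 ranged from 2.06 to 2.25 and HERPUD1 from 1.99 to 2.10, so these ranges overlap. HEK293T libraries started higher, at 36.0, 37.2 and 32.4 CPM, and reached 84.8, 82.0 and 79.7 CPM, a log2 fold change of 1.23 ± 0.10 (adjusted p = 2.2e-09). Untreated cells (21.9, 24.7 and 22.2 CPM) and both OCI-AML3 groups with DMSO overlapped with one another. SYVN1 shares 130 exonic bases with FAU on its strand, a gene with 117282 counts over the 21 libraries against 21412 for SYVN1. SYVN1 also shares 356 exonic bases with MRPL49 on the other strand, a gene with 33468 counts.

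SEL1L (ENSG00000071537, chr14:81471547-81533853, minus strand), the adaptor that binds SYVN1 and keeps it stable, rose in all 3 comparisons. In OCI-AML3 cells it went from 89.96, 103 and 103 CPM to 362, 353 and 375 CPM at 4 h. At 24 h the levels were 82.9, 79.1 and 81.4 CPM with DMSO and 314, 287 and 348 CPM with tunicamycin. The log2 fold changes were 1.88 ± 0.07 (adjusted p = 3.5e-15) and 1.96 ± 0.07 (adjusted p = 2.5e-15), 3.68 and 3.90 times the DMSO level. In HEK293T cells it rose from 65.0, 56.3 and 65.6 CPM to 158, 163 and 166 CPM, with a log2 fold change of 1.38 ± 0.07 (adjusted p = 1.5e-12). Untreated cells had 86.7, 87.6 and 92.2 CPM and overlapped with DMSO at 4 h, the 1 overlap among neighbours in the order of the groups.

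Of the derlins, rhomboid-like proteins of the membrane channel, DERL2 was called in OCI-AML3 cells at both times and DERL1 in none of the comparisons. DERL2 (ENSG00000072849, chr17:5471254-5486811, minus strand) stood at 42.5, 34.05 and 36.3 CPM with DMSO for 4 h and at 112, 109.97 and 111 CPM with tunicamycin, a log2 fold change of 1.56 ± 0.08 (adjusted p = 9.9e-13). After 24 h DERL2 had 28.8, 30.1 and 35.3 CPM with DMSO and 80.7, 96.4 and 87.6 CPM with tunicamycin, a log2 fold change of 1.49 ± 0.09 (adjusted p = 3.4e-12). HEK293T libraries went from 36.4, 34.3 and 33.9 CPM to 59.5, 63.1 and 63.0 CPM, and the gene rose by 0.83 ± 0.08 (adjusted p = 9.2e-08), short of a call. The 4 groups without tunicamycin, untreated cells (37.1, 38.0 and 36.1 CPM) among them, overlapped with their neighbours in the order of levels. DERL2 shares 301 exonic bases with MIS12 on the other strand, a gene with 22219 counts over the 21 libraries against 19571 for DERL2. The sources used here do not say whether counting used the strand.

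DERL1 (ENSG00000136986, chr8:123013170-123042302, minus strand) had 125, 115 and 112 CPM with DMSO for 4 h and 123, 112 and 118 CPM with tunicamycin. These groups overlapped, with a log2 fold change of 0.01 ± 0.06 (adjusted p = 0.95). At 24 h the libraries stood at 117, 112 and 119 CPM with DMSO and at 148, 152 and 146 CPM with tunicamycin, and the gene rose by 0.36 ± 0.06 (adjusted p = 2.4e-05). In HEK293T cells it rose by 0.39 ± 0.06 (adjusted p = 2.8e-05), from 68.0, 65.8 and 68.8 CPM to 88.1, 89.4 and 87.3 CPM. These levels were 1.28 and 1.31 times those with DMSO. Untreated cells (114, 120.2 and 112 CPM) overlapped with the other OCI-AML3 groups except tunicamycin at 24 h. DERL1 shares 333 exonic bases with TBC1D31 on the other strand.

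Of the genes that act on the glycan, EDEM1 (ENSG00000134109, chr3:5187646-5219958, plus strand), a mannosidase-like protein of the ER lumen, was the 1 called. It went from 194, 223 and 212 CPM to 461, 447 and 453 CPM at 4 h, a log2 fold change of 1.11 ± 0.07 (adjusted p = 1.6e-11). After 24 h EDEM1 stood at 298, 263 and 271 CPM with DMSO and at 474, 459 and 538 CPM with tunicamycin. The level with tunicamycin overlapped between the times while that with DMSO was higher at 24 h, and the log2 fold change was 0.82 ± 0.07 (adjusted p = 2.7e-09). HEK293T cells went from 47.8, 46.7 and 52.5 CPM to 117, 114 and 111 CPM, a log2 fold change of 1.21 ± 0.07 (adjusted p = 1.3e-11). With tunicamycin they remained below untreated OCI-AML3 cells (200.4, 196 and 213 CPM). EDEM1 shares 631 exonic bases with ENSG00000268509, a long non-coding RNA on the other strand.

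EDEM2 (ENSG00000088298, chr20:35115364-35147336, minus strand), which starts the trimming of mannose, did not pass the test in OCI-AML3 cells. Its levels were 23.5, 18.6 and 21.6 CPM with DMSO and 25.4, 25.1 and 20.5 CPM with tunicamycin at 4 h, and 23.1, 23.0 and 24.6 CPM and 25.4, 24.2 and 20.4 CPM at 24 h. The groups overlapped at both times, with log2 fold changes of 0.16 ± 0.10 (adjusted p = 0.22) and -0.02 ± 0.10 (adjusted p = 0.90). The sign of the second turned to positive with DESeq2 and with other scalings. HEK293T cells differed: EDEM2 rose there by 0.77 ± 0.10 (adjusted p = 3.3e-06), from 15.95, 15.8 and 15.5 CPM to 25.4, 28.5 and 26.8 CPM, and these were the lowest and the highest of the 7 group means. Untreated OCI-AML3 cells had 20.1, 20.96 and 19.7 CPM and overlapped with DMSO at 4 h.

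EDEM3 (ENSG00000116406, chr1:184690237-184754907, minus strand), also a mannosidase of this family, had the widest spread between replicates. With DMSO for 4 h it had 139, 203 and 217 CPM, a coefficient of variation of 22.2%, and with tunicamycin 153, 156 and 176 CPM. The log2 fold change was -0.21 ± 0.14 (adjusted p = 0.25), the 1 negative value of the members at 4 h. Without the first DMSO library it was -0.36 (adjusted p = 0.023), and against untreated cells (223, 180.3 and 242 CPM) it was -0.42 (adjusted p = 0.02), and without the filter on low counts it was -0.24 (adjusted p = 0.029). The gene was not called in any of the 30 alternatives, and its adjusted p passed in these 3. Without the third DMSO library the value was -0.085 (adjusted p = 0.7). At 24 h it rose by 0.49 ± 0.14 (adjusted p = 0.0058), from 133, 138 and 107 CPM to 161, 154 and 214 CPM. In HEK293T cells it rose by 0.64 ± 0.14 (adjusted p = 0.0017), from 73.2, 74.9 and 79.8 CPM to 115, 119.5 and 122 CPM. In the order of the groups, all neighbours overlapped except tunicamycin at 4 h with DMSO at 24 h, and HEK293T cells with tunicamycin against those with DMSO.

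OS9 (ENSG00000135506, chr12:57693841-57728342, plus strand), the lectin that binds trimmed glycans, rose in all 3 comparisons without being called. It went from 224, 225 and 224 CPM to 283, 281 and 283 CPM at 4 h, a rise of 0.33 ± 0.06 on the log2 scale (adjusted p = 0.00016). After 24 h OS9 went from 281, 282 and 275 CPM to 552, 484 and 456 CPM, and the rise was larger, at 0.83 ± 0.06 (adjusted p = 3e-10). The level after tunicamycin for 4 h overlapped with that after DMSO for 24 h. In HEK293T cells OS9 rose by 0.59 ± 0.06 (adjusted p = 2e-07), from 135, 144 and 130.4 CPM to 208, 209 and 198 CPM, a level that overlapped with untreated OCI-AML3 cells (213, 211 and 201 CPM). OS9 shares 1378 exonic bases with AGAP2-AS1 on its strand, and on the other 744 with AGAP2 and 699 with the long non-coding RNA ENSG00000257342. These genes had 845, 3857 and 6575 counts over the 21 libraries against 88040 for OS9.

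SELENOS (ENSG00000131871, chr15:101270817-101277500, minus strand), a selenoprotein of the ER membrane, rose in both lines. With DMSO for 4 h it had 46.4, 30.9 and 34.9 CPM, and with tunicamycin 81.1, 83.1 and 88.1 CPM, a log2 fold change of 1.17 ± 0.11 (adjusted p = 9.7e-09). At 24 h it went from 31.0, 29.8 and 36.7 CPM to 62.7, 72.3 and 58.3 CPM. Its log2 fold change of 0.99 ± 0.11 (adjusted p = 1.6e-07) lay just under the limit of 1 and passed it in 14 of 29 alternatives. HEK293T cells, which held more of this RNA with DMSO (55.6, 56.5 and 55.7 CPM), reached 127, 125 and 128 CPM, a log2 fold change of 1.18 ± 0.10 (adjusted p = 8.3e-09). Untreated cells (38.4, 36.6 and 35.5 CPM) overlapped with both OCI-AML3 groups given DMSO.

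**Figure D2:**
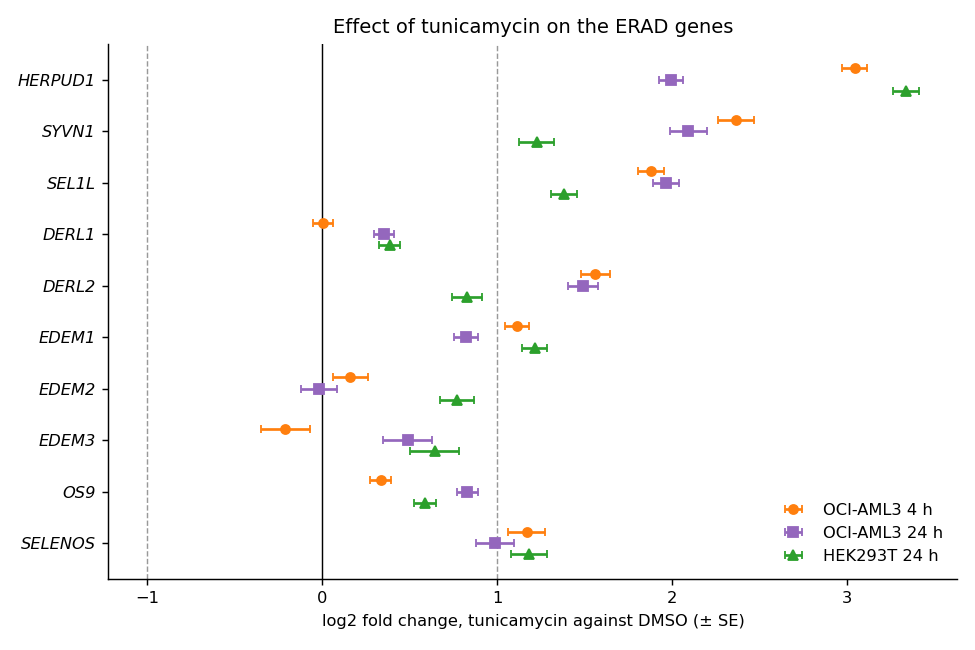
Log2 fold change of each gene with tunicamycin against DMSO (horizontal axis), with SE as bars, for OCI-AML3 cells at 4 h (circles) and 24 h (squares) and HEK293T cells at 24 h (triangles). Dashed lines mark -1 and 1. HERPUD1 spans 1.99 to 3.33, and EDEM2 lies at 0.16 and -0.02 in OCI-AML3 cells and at 0.77 in HEK293T cells.

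Whether tunicamycin acted differently at 24 h than at 4 h in OCI-AML3 cells was tested with an interaction term, at an adjusted p of at most 0.05. It passed for 5 of 10 genes, against 35.3% of all genes tested, with 2 lower at 24 h (against 20.3%) and 3 higher (against 15.1%). The effect on HERPUD1 was smaller at 24 h, by 1.05 ± 0.09 on the log2 scale (adjusted p = 2.9e-08), and that on EDEM1 by 0.29 ± 0.10 (adjusted p = 0.023). The effect was larger at 24 h for EDEM3, by 0.70 ± 0.20 (adjusted p = 0.0085), for OS9, by 0.50 ± 0.09 (adjusted p = 0.00015), and for DERL1, by 0.35 ± 0.08 (adjusted p = 0.0019). The difference was not past the test for SEL1L (0.09 ± 0.10), SYVN1 (-0.27 ± 0.14), DERL2 (-0.07 ± 0.12), EDEM2 (-0.18 ± 0.14) and SELENOS (-0.18 ± 0.15). With a library left out, SEL1L lay between 0.039 and 0.19, SYVN1 between -0.35 and -0.12 and EDEM2 between -0.27 and -0.059. SEL1L, SYVN1 and EDEM2 each passed in 0 of 29 alternatives. The EDEM1 difference was lost in 11 of 29 alternatives, with adjusted p up to 0.21. Without the first DMSO library at 4 h, in which SELENOS was high, the SELENOS difference was -0.33 (adjusted p = 0.035), and without the third DMSO library at 24 h it was -0.052 (adjusted p = 0.83).

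The same test between HEK293T and OCI-AML3 cells at 24 h passed for 7 of 10 genes, against 26.8% of all genes, with 3 higher in HEK293T cells (against 15.9%) and 4 lower (against 10.9%). The effect was larger in HEK293T cells for HERPUD1, by 1.34 ± 0.10 (adjusted p = 1.6e-09), EDEM2, by 0.79 ± 0.14 (adjusted p = 0.00028), and EDEM1, by 0.39 ± 0.10 (adjusted p = 0.0059). It was smaller for SYVN1, with a difference of -0.87 ± 0.14 (adjusted p = 0.00011), DERL2, with -0.66 ± 0.12 (adjusted p = 0.00029), SEL1L, with -0.58 ± 0.10 (adjusted p = 0.00026), and OS9, with -0.24 ± 0.09 (adjusted p = 0.044). The ligase SYVN1 and its adaptor SEL1L therefore differed in the opposite direction to HERPUD1. The differences for EDEM3 (0.15 ± 0.20), SELENOS (0.19 ± 0.15) and DERL1 (0.03 ± 0.08) were not past the test. With a library left out, EDEM3 lay between 0.011 and 0.27 and SELENOS between 0.048 and 0.23, and each passed in 0 of 29 alternatives. The OS9 difference was lost in 11 of 29 alternatives, with adjusted p up to 0.21, and that of EDEM1 without TMM scaling (adjusted p = 0.087).

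**Figure D3:**
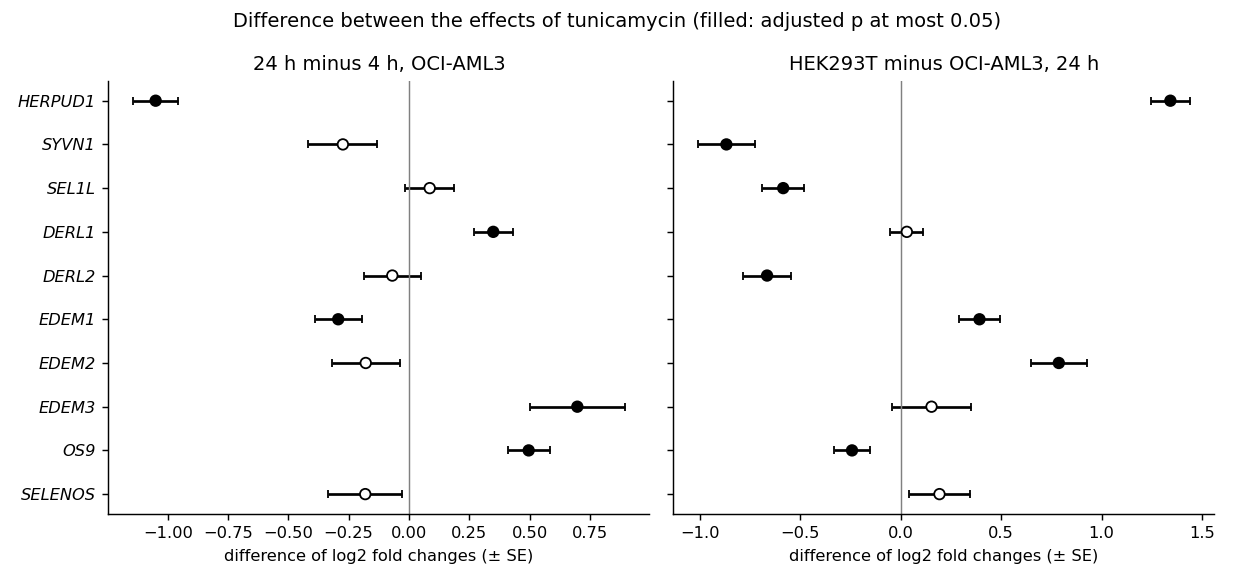
Difference between the log2 fold changes of tunicamycin, with SE as bars, for 24 h minus 4 h in OCI-AML3 cells (left) and for HEK293T minus OCI-AML3 cells at 24 h (right). Filled points have an adjusted p of at most 0.05. HERPUD1 lies at -1.05 on the left and at 1.34 on the right, while SYVN1, SEL1L and DERL2 lie below 0 on the right.

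The groups without tunicamycin were compared as background. DMSO for 4 h against untreated OCI-AML3 cells gave 0 of 10 genes at an adjusted p of at most 0.05 with edgeR, as it did for 0.0% of all genes tested, and the lowest adjusted p of the 10 was 0.58. At an unadjusted p under 0.05 there were 2 (SEL1L and SYVN1), against 1160 genes in all, and limma voom and DESeq2 also gave 0 of the 10. With DMSO for 24 h against 4 h, 6 of 10 changed, against 42.6% of all genes. EDEM1 (0.41), OS9 (0.32) and HERPUD1 (0.27) rose on the log2 scale, while EDEM3 (-0.57), SEL1L (-0.28) and DERL2 (-0.26) fell, so each comparison with tunicamycin was made against DMSO at its own time.

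Levels of 9 of 10 genes differed between HEK293T and OCI-AML3 cells with DMSO at 24 h, against 82.7% of all genes. In HEK293T cells 7 were lower (against 42.2%) and 2 higher (against 40.5%). EDEM1, with a log2 difference of -2.501 ± 0.07 (adjusted p = 6.2e-19), and HERPUD1, with -2.45 ± 0.07 (adjusted p = 5.1e-19), were farthest apart. OS9 (-1.03), DERL1 (-0.78), EDEM3 (-0.73), EDEM2 (-0.58) and SEL1L (-0.38) followed. SELENOS, with 0.78 ± 0.11 (adjusted p = 6.5e-07), and SYVN1, with 0.48 ± 0.11 (adjusted p = 0.00021), were higher in HEK293T cells, and the difference in DERL2 (0.15, adjusted p = 0.11) did not pass. Without TMM the median of all genes moved by 0.34 on the log2 scale in this comparison, by -0.12 between DMSO at 24 h and 4 h, and by -0.11 in the difference between the lines.

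Levels of different genes can be compared only per length. Per kilobase of the canonical transcript, OS9 was highest of the 10 in untreated cells (77.8 ± 2.35 CPM per kb, SD, n = 3) and in all groups with DMSO, with 83.5 ± 0.20 at 4 h, 104 ± 1.37 at 24 h and 50.9 ± 2.65 in HEK293T cells. HERPUD1 was highest in all groups with tunicamycin, with 460 ± 6.71 CPM per kb at 4 h, 268 ± 11.6 at 24 h and 124 ± 3.52 in HEK293T cells. SYVN1 and DERL2 were the lowest pair in all OCI-AML3 groups without tunicamycin, between 7.536 and 9.03 CPM per kb. In HEK293T cells with DMSO, SELENOS (45.9 ± 0.41 CPM per kb) came next to OS9. With the length of all merged exons in place of the canonical transcript, OS9 came behind HERPUD1 and EDEM1 in the OCI-AML3 groups without tunicamycin, so the order of these controls depends on the length used. The lead of HERPUD1 with tunicamycin, and of OS9 in HEK293T cells with DMSO, held under both lengths.

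**Figure D4:**
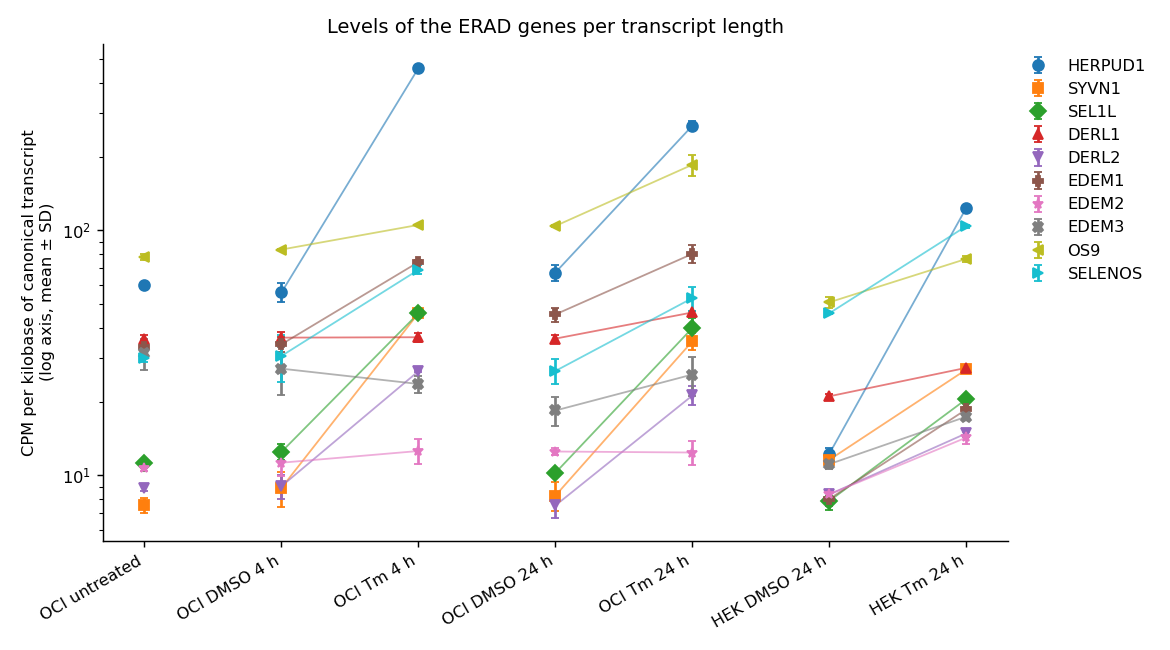
Mean level per kilobase of canonical transcript (CPM per kb, log axis, bars SD, n = 3) for the 10 genes in the 7 groups. Lines join DMSO and tunicamycin (Tm) of the same time and cells. HERPUD1 lies above all others in the groups with tunicamycin, at 460, 268 and 124 CPM per kb, and OS9 in those without.

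Taken as 1 sum, the 10 genes held 1119 ± 27.2 CPM in untreated cells (SD, n = 3) and 1118 ± 32.0 with DMSO at 4 h, and 3048 ± 37.6 with tunicamycin. At 24 h the sum was 1185 ± 23.8 with DMSO and 2676 ± 42.5 with tunicamycin, and in HEK293T cells it was 568 ± 3.44 and 1339 ± 8.50. The sum and the shares of it are of CPM not divided by length, so they do not rank the genes by level. HERPUD1 made up 14.3% of this sum with DMSO at 4 h and 43.0% with tunicamycin. At 24 h its share went from 16.2% to 28.6%, and in HEK293T cells from 6.16% to 26.4%.

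The spread between replicates was small for most values, with a median coefficient of variation of 4.36% over 70 gene and group pairs. It was over 15% in 4: EDEM3 with DMSO at 4 h (22.2%) and with tunicamycin at 24 h (18.4%), SELENOS with DMSO at 4 h (21.5%) and SYVN1 with DMSO at 4 h (16.2%). In the 3 cases with DMSO at 4 h, replicate 1 was the library that stood off, low for EDEM3 and SYVN1 and high for SELENOS.

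The patterns of the genes over the 7 group means of log2 CPM were compared by Pearson correlation, as a description, since the points share cell lines, controls and scaling. Over the 45 pairs the mean r was 0.56, from -0.26 for EDEM3 and SELENOS to 0.98 for DERL2 and SEL1L. The pairs above 0.9 were 5: DERL2 and SEL1L, DERL2 and SYVN1 (0.97), DERL1 and EDEM1 (0.95), HERPUD1 and SEL1L (0.94), and SEL1L and SYVN1 (0.92). Among all genes tested, the pattern most like HERPUD1 was that of MYDGF (0.995), and SHMT2 (0.994) and ENSG00000261270 (0.993), a long non-coding RNA inside the HERPUD1 locus with 686 counts in all and no shared exonic base, came next. For SEL1L they were NIBAN1, ZNF425 and WARS1, for SYVN1 MIATNB, ENSG00000275719 and EIF2AK3, and for DERL2 the ER chaperone genes SDF2L1 (0.995), DNAJC3 (0.992) and HSPA5 (0.988). SELENOS was nearest to UFL1, ASNS and CISD2, EDEM1 to POLR2M, MATN1-AS1 and TPRA1, and OS9 to AKAP1-DT, SERINC3 and DHRS7B. EDEM3 was nearest to SH3YL1, ALG1 and NIPBL-DT, DERL1 to IDUA, IDNK and ENSG00000261641, and EDEM2 to PRECSIT (0.950), ARHGAP32 (0.943) and TMED9 (0.896).

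Of 58 other ERAD genes listed by role, 57 were tested, all but SEL1L2. In OCI-AML3 cells at 4 h, 17 rose and 11 fell, at 24 h 20 rose and 17 fell, and in HEK293T cells 16 rose and 6 fell. The shares of all genes that rose were 18.5%, 23.5% and 12.6%, and those that fell 18.9%, 27.7% and 13.1%. The genes called higher were 2, 1 and 3 in these comparisons, against 3.45%, 4.05% and 1.58% of all genes, and the genes called lower 0 in each, against 1.47%, 2.26% and 0.55% of all genes. The list had median log2 fold changes of 0.09, 0.07 and 0.06. Without replicate 2 of the OCI-AML3 cells with tunicamycin for 24 h, FBXO6 was also called at 24 h, lower, which made 2 genes called in place of 1.

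DERL3 (ENSG00000099958, chromosome 22), a further derlin, was called in all 3 comparisons, with larger log2 fold changes than DERL1 or DERL2. At 4 h it went from 10.3, 8.83 and 8.87 CPM to 60.0, 72.0 and 77.7 CPM, a log2 fold change of 2.91 ± 0.11 (adjusted p = 3.5e-15). After 24 h DERL3 went from 9.75, 10.7 and 10.5 CPM to 186, 176 and 153 CPM, a log2 fold change of 4.05 ± 0.12 (adjusted p = 9.6e-18). HEK293T cells went from 8.002, 8.19 and 7.27 CPM to 93.8, 84.6 and 85.6 CPM, a log2 fold change of 3.49 ± 0.11 (adjusted p = 2e-16). Its effect grew with time by 1.15 ± 0.16 (adjusted p = 1.5e-05), unlike that of HERPUD1, and was smaller in HEK293T cells, with a difference of -0.56 ± 0.16 (adjusted p = 0.013).

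The other genes called were UBE2J1, TXNDC11 and DNAJC10. UBE2J1, a ubiquitin-conjugating enzyme of the ER membrane, rose by 0.75 and 0.73 in OCI-AML3 cells (4 h and 24 h) and was called in HEK293T cells, at 1.13 ± 0.07 (adjusted p = 3.1e-11). TXNDC11, a thioredoxin domain protein of the ER membrane, was called at 4 h, at 1.18 ± 0.06 (adjusted p = 9.8e-13), and rose by 0.72 at 24 h and by 0.90 in HEK293T cells. DNAJC10, the reductase ERdj5 that opens disulfide bonds of substrates, was called in HEK293T cells, at 1.17 ± 0.09 (adjusted p = 1.4e-09), against 0.23 (adjusted p = 0.054) and 0.50 (adjusted p = 0.0002) in OCI-AML3 cells. Promoters were matched for 41 of the 58 other ERAD genes, DERL3 not among them, and 4 of the 41 hold the UPRE, against 0.795% of all promoters. They are these 3 called genes and VCP, which was not called. VCP fell at 24 h in OCI-AML3 cells (-0.27, adjusted p = 0.00061) and did not pass at 4 h (0.10) or in HEK293T cells (-0.01). The list was chosen with earlier results known, and a link between the UPRE and a rise was not tested. Sequences of the 3 called genes are shown because none of the 9 windows of the main genes holds the UPRE, and that of VCP is not shown. The capitals mark the motif, in UBE2J1 (chr6:89352935-89352964, minus strand) and DNAJC10 (chr2:182716121-182716150, plus strand) as its reverse complement, and in TXNDC11 (chr16:11742834-11742863, minus strand) just after the start of the gene.
UBE2J1: cgaagctactgCCACGTCAgggcaacttca
DNAJC10: cgcgcacaccgCCACGTCAacctaaaccta
TXNDC11: ggcggcgcggcTGACGTGGagcgtccgggt

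The counts by role are read beside the shares of all genes tested, of which 18.5%, 23.5% and 12.6% rose and 18.9%, 27.7% and 13.1% fell in the 3 comparisons. The genes for substrate selection had the highest medians, at 0.23, 0.50 and 0.88 over 5 genes, and 2, 3 and 4 of them rose and 1, 0 and 0 fell. Among them ERLEC1, a lectin related to OS9, rose by 0.52, 0.52 and 0.88. Of 10 further ubiquitin ligases of the ER membrane, 3, 6 and 3 rose and 1, 2 and 0 fell. RNFT1 rose by 0.73 and 0.69 in OCI-AML3 cells and did not pass in HEK293T cells (0.18, adjusted p = 0.3). TRIM13 fell at 4 h (-0.72, adjusted p = 1e-05) and at 24 h (-0.40, adjusted p = 0.0037). It did not pass in HEK293T cells (-0.18, adjusted p = 0.24). Of the 6 ubiquitin-conjugating and elongating enzymes, 1 rose in each comparison and 1 fell. Of 11 other membrane components, 4, 5 and 5 rose and 4, 1 and 0 fell.

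Among genes that act on extracted proteins, of 8 genes for VCP and its cofactors, 3, 3 and 2 rose and 1, 4 and 1 fell, with VCP itself at 0.10 (adjusted p = 0.19), -0.27 (adjusted p = 0.00061) and -0.01 (adjusted p = 0.95). Of the 17 genes for deglycosylation, deubiquitination and delivery to the proteasome, 4, 2 and 1 rose (against 18.5%, 23.5% and 12.6% of all genes) and 3, 9 and 4 fell (against 18.9%, 27.7% and 13.1%). Among the lowest were UBL4A (-0.92, adjusted p = 1.8e-06) and UBQLN2 (-0.73, adjusted p = 1.8e-06) at 4 h, and FBXO6 (-0.90, adjusted p = 6.3e-05) and UBQLN4 (-0.73, adjusted p = 2.4e-07) at 24 h. In HEK293T cells FBXO44 fell by 0.43 (adjusted p = 0.0048), while FBXO2 (-0.73) and FBXO6 (-0.66, with 0 to 8 counts a library) did not pass.

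**Figure D5:**
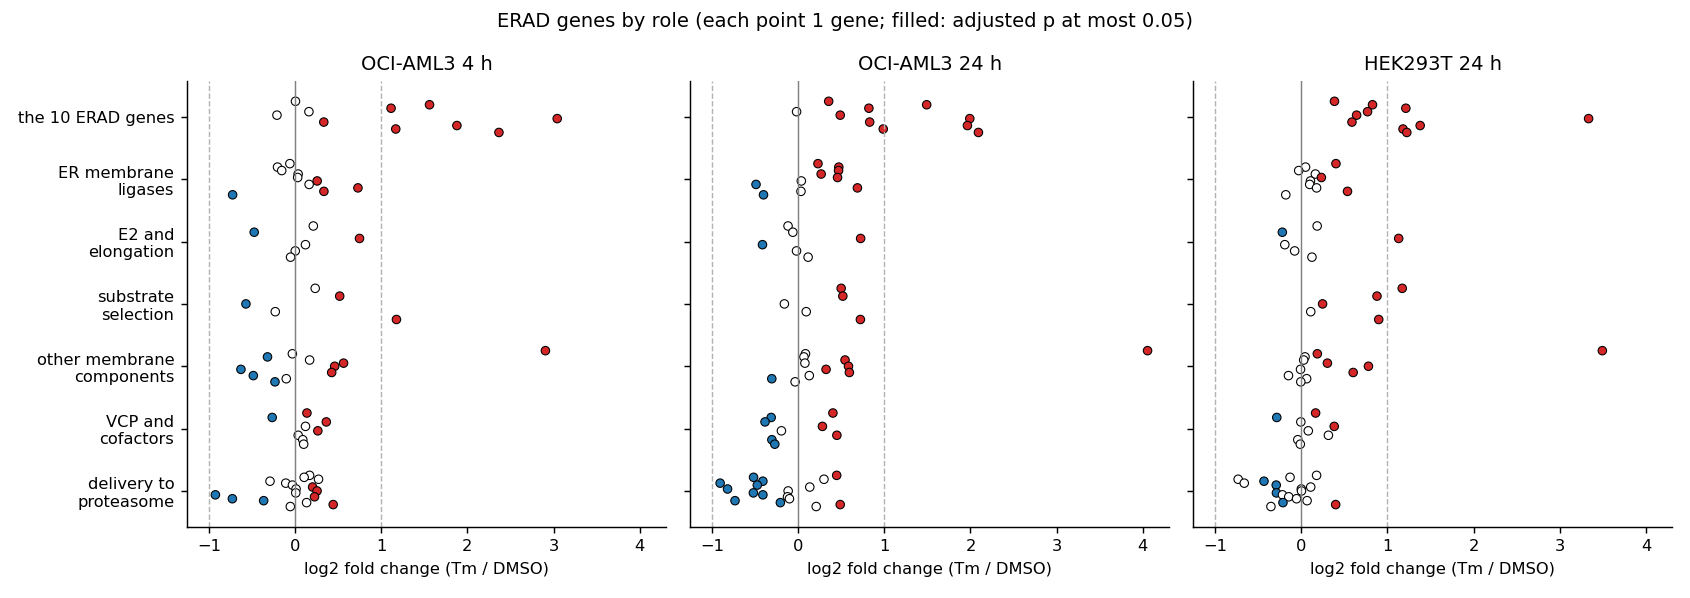
Log2 fold change with tunicamycin against DMSO (horizontal axis) for the 10 genes (top row) and for 57 other ERAD genes by role (other rows) in the 3 comparisons. Each point is 1 gene, red where it rose and blue where it fell at an adjusted p of at most 0.05, open where it did not pass, and points are spread vertically only to separate them. The point at 2.91, 4.05 and 3.49 among the other membrane components is DERL3.

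Chaperones of the ER and proteasome subunits, which act at the last step of ERAD, are given for comparison. Of 12 ER luminal chaperones, 10, 11 and 11 were called higher, against 3.45%, 4.05% and 1.58% of all genes, with median log2 fold changes of 2.13, 2.67 and 1.93. Of 31 subunits of the 26S proteasome, 0 were called higher and 0, 1 and 0 lower, and the medians were -0.04, -0.62 and -0.27. At an adjusted p of at most 0.05 alone, 1, 0 and 0 subunits rose, against 18.5%, 23.5% and 12.6% of all genes, and 4, 30 and 21 fell, against 18.9%, 27.7% and 13.1%. No list was tested against another.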

How the data were processed

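Polyadenylated RNA of 21 libraries was sequenced. The authors aligned paired-end reads to GRCh38 with STAR and deposited RSEM expected counts per gene (Ensembl release 101), neither scaled nor filtered. RSEM divides reads that align to several places, and strand use is not given in the sources used here. Expected counts were rounded to whole numbers. A gene entered the fit where 8 or more of 21 libraries reached 1 CPM (14012 genes). All 7 groups were fitted together with edgeR 4.0.16 in R 4.3.3 (quasi-likelihood, TMM factors 0.891 to 1.15, no replicate block), with Benjamini-Hochberg adjustment across these genes. Calls in the tunicamycin comparisons also needed a log2 fold change beyond 1 in either direction, while interactions and comparisons of controls used the adjusted p alone. SE was obtained from the log2 fold change and its F statistic. A count of 0 allows up to 3 counts, 0.150 to 0.217 CPM, for counting error only.

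The 10 genes and all lists were chosen with earlier results of these data known. Named are the 10 genes and, of the other ERAD genes, those called with tunicamycin and the 3 farthest from 0 in each direction, except where a gene is not reported here. VCP, ERLEC1, RNFT1 and the gene SEL1L2 were named after their values were seen. Patterns were compared by Pearson correlation of 7 group means of log2 CPM (prior count 2). Alternatives were limma voom (limma 3.58.1), DESeq2 1.42.0 (Wald), its size factors within edgeR, no TMM, every gene with 1 count, 1 CPM in 3 libraries, the compared groups alone, a replicate block, untreated cells as control at 4 h, and each library left out. Positions, overlaps and transcript lengths were taken from GENCODE 44 (GRCh38, the build the authors used), and promoters from RefSeq (GRCh38.p14). Figures were drawn with matplotlib 3.10.9.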

Additional observations from a re-analysis of the deposited data

Results flagged for a closer look

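The effect of tunicamycin in OCI-AML3 cells was not the same at 24 h as at 4 h, by an interaction term in edgeR at an adjusted p of at most 0.05, for HERPUD1 (-1.05 on the log2 scale, 24 h minus 4 h), EDEM3 (0.70), OS9 (0.50), DERL1 (0.35) and EDEM1 (-0.29). It differed between HEK293T and OCI-AML3 cells at 24 h for HERPUD1 (1.34, HEK293T minus OCI-AML3), SYVN1 (-0.87), EDEM2 (0.79), DERL2 (-0.66), SEL1L (-0.58), EDEM1 (0.39) and OS9 (-0.24). The EDEM1 difference between times and the OS9 difference between lines each passed in 18 of 29 alternatives, and the EDEM1 difference between lines in 28 of 29. The shares of all genes tested that passed these tests were 35.3% and 26.8%.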

How the results depend on the processing

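Over the alternatives, 6 of 10 genes were called in OCI-AML3 cells at 4 h and 5 of 10 in HEK293T cells in every setting, and 4 to 5 in OCI-AML3 cells at 24 h, where SELENOS lies at the limit. The difference between times held for 4 to 5 genes and that between lines for 6 to 7. DMSO at 24 h against 4 h changed 5 to 8 genes, and the lines with DMSO differed in 9 to 10. In the main fit 690 (OCI-AML3, 4 h), 885 (24 h) and 298 (HEK293T) of all 14012 genes were called. The other comparisons passed for 35.3%, 26.8%, 42.6% and 82.7% of all genes, in this order. Without TMM, where DMSO time changed 8 of the 10, 6742 of all genes passed, against 5970 in the main fit. Without DMSO replicate 1 at 4 h, where the lines differed in 10, 11749 passed, against 11590. Other ERAD genes called in OCI-AML3 cells at 24 h were 1 to 2 with a library left out, 2 without replicate 2 of the cells with tunicamycin, where FBXO6 reached -1.003 (adjusted p = 5.7e-05). At 4 h UBL4A was also called, lower, with untreated cells as control (-1.01) or without DMSO replicate 3. Values near 0 changed sign. EDEM2 in OCI-AML3 cells at 24 h (-0.02) was 0.018 with DESeq2, 0.019 with its size factors, 0.021 with 1 CPM in 3 libraries, 0.061 without TMM, 0.0059 in the compared groups alone and -0.037 to 0.12 with a library left out. DERL1 at 4 h (0.01) was -0.0101 without TMM, -0.0299 without the filter and -0.028 to 0.0697 with a library left out. The difference between lines for DERL1 (0.03) was -0.007003 with DESeq2, -0.0068 with its size factors, -0.0105 with 1 CPM in 3 libraries, -0.0083 in the compared groups alone, -0.081 without TMM and -0.0396 to 0.0386 with a library left out. The difference between times for DERL2 (-0.07) was 0.027 without TMM and -0.13 to 0.057 with a library left out. The cause of these changes was not tested. Deviations of same-numbered replicates had correlations from -0.14 to 0.13 between tunicamycin and DMSO. In HEK293T cells these were 0.044, 0.058 and 0.12 for replicates 1 to 3, each the highest for its tunicamycin library. In OCI-AML3 cells at 4 h they were 0.099, 0.014 and 0.13, the highest for replicates 1 and 3. At 24 h they were 0.015, -0.079 and -0.14, the highest for replicate 1 only. With the replicate block the counts of genes stayed at 6, 4 and 5 called, and at 5 and 7 for the differences. They also stayed at 0, 6 and 9 for the controls, and at 2, 1 and 3 for other ERAD genes. The lowest count of a member in a library was 283.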
